A study of Mus musculus with 2 samples.

Results

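Among the spleen cells of allergic mice, 149 cells carried RNA of Ccl24, St18 or Slc4a4 and none of 4 lymphocyte genes. They were chosen from the counts of unique molecular identifiers (UMIs, each standing for 1 captured RNA molecule) with all samples pooled. A cell entered when Ccl24, St18 and Slc4a4 together gave at least 3 UMIs, when Cd79a, Ms4a1 (B cells), Cd3e (T cells) and Ncr1 (NK cells) were at 0, and when it held at least 200 detected genes and at most 10% mitochondrial UMIs. The 149 cells are 0.913% (95% interval 0.773 to 1.07) of the 16325 filtered cells, out of 16829 deposited barcodes. They are called Ccl24/St18/Slc4a4+ cells here, since only part of them carried the RNA of a macrophage. The cells fell into groups that differed strongly in macrophage genes: Lyz2, the gene of lysozyme, was at 3198 CPM (its UMIs out of each 1000000 counted in the group) in 24 of the cells, which lay with monocyte-like cells, and at 25.5 CPM in 54 others, which lay in a cluster with little macrophage RNA. The genes that define the red pulp macrophage, the iron-recycling macrophage of the spleen, were absent or at low levels.

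The mice were C57BL/6, 8 weeks old, and all had been sensitized to ovalbumin (OVA) on days 0 and 10. They were then left untreated, or received a standard desensitization with OVA in PBS on days 20, 22 and 24 and OVA in Alum on days 40 and 60, or received on days 20, 22 and 24 a DCIR-2-Fusion protein that carries OVA to dendritic cells. On day 80, after an OVA challenge described in the methods of the study, spleen cells were stimulated for 3 h with PMA and ionomycin. Leukocytes (CD45+) with and without CD11b were then sorted apart, mixed 1:1, frozen and run together as 1 pool. Its RNA library and its hashtag library were read from the same barcodes. The sort raises the share of myeloid cells, so the shares given here are not those of a spleen, and the stimulation acts on cytokine and chemokine genes in every cell.

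Macrophages are phagocytes that take up dying cells and debris, and in the spleen their main residents differ by place. Red pulp macrophages remove old red blood cells, depend on the transcription factor Spic, carry the adhesion molecule Vcam1 and export iron through Slc40a1. The macrophages of the marginal zone include kinds that carry the receptor Marco or the receptor Siglec1. Ccl24 is an eotaxin, a chemokine that draws eosinophils through the receptor Ccr3 and that macrophages make under IL-4. St18 is a zinc finger transcription factor best known from neurons and endocrine cells, Slc4a4 is a sodium bicarbonate cotransporter of the cell membrane, and Lpl is the lipase that frees fatty acids from lipoproteins.

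The hashtags, DNA tags on antibodies, were the only marks that told samples apart within the pool. Their 15-base sequences are shown because each value per sample given further on rests on reading 1 of them:
hashtag 9: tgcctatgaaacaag
hashtag 10: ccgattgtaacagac
hashtag 11: gcttaccgaattaac
hashtag 12: ctgcaaatataacgg
The 4 hashtags stand against 3 conditions and the labels pair none of them, so the untreated and treated mice were not compared. The pool is 1 run and the labels give its hashtags no condition, so no test was made, and each interval (exact Poisson for CPM, exact Clopper-Pearson for shares of cells, both at 95%) covers counting error only.

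The pool held 137010302 UMIs, with a median of 6334 per barcode (502 to 98727). The Ccl24/St18/Slc4a4+ cells were deeper, with a median of 13624 UMIs (545 to 64638) and 3425 genes, and held 2629797 UMIs in all. The 284 monocyte-like cells, chosen by at least 2 UMIs of Csf1r, Ms4a6c and Fcgr1 with all 3 rule genes and the lymphocyte genes at 0, had a median of 9331.5 UMIs and held 3067389. Of these, 8 also passed the gate of cDC2-like and 13 that of cDC1-like cells, the 2 kinds of conventional dendritic cell. Scrublet, a caller of droplets with more than 1 cell, marked 13 of the Ccl24/St18/Slc4a4+ cells (8.72%), 18 of the monocyte-like cells (6.34%) and 8.18% of all filtered cells. A further 73 cells met the rule but had a UMI of a lymphocyte gene and were left out.

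St18 was the most widespread of the 3 genes of the rule, and Ccl24 and Slc4a4 seldom met in a cell. Since they chose the cells, their levels are a description. St18 was found in 130 of the 149 cells with 1295 UMIs in all, at 492 CPM (466 to 520), and its richest cell held 84 of them. Slc4a4 had a UMI in 49 cells and 485 UMIs, at 184 CPM (168 to 202), with 61.4% of them in the 10 richest cells. Ccl24 had a UMI in 17 cells and 520 UMIs, at 198 CPM (181 to 215), but 97.7% of these lay in 10 cells and 203 in 1 cell, and without that cell the level was 122 CPM. St18 was thus spread over most of the cells, and the chemokine came from few. By combination, 85 cells held St18 without the other rule genes, 35 St18 with Slc4a4, 12 Slc4a4 alone, 8 Ccl24 with St18, 7 Ccl24 alone, 2 all 3 genes, and 0 Ccl24 with Slc4a4 alone. St18 was present in 37 of the 49 cells with Slc4a4 and in 10 of the 17 cells with Ccl24.

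The rule gathered most of the RNA of these genes in the pool: 76.6% of the Ccl24 UMIs of all filtered cells, 64.4% of the St18 UMIs and 67.4% of the Slc4a4 UMIs. The B cells (1678 cells with at least 3 UMIs of Cd79a and Ms4a1 and a median of 10963.5 UMIs), which should lack these genes and so show the background of free RNA in the droplets, were at 0.190 CPM for Ccl24, 1.42 for St18 and 0.711 for Slc4a4. With every cell thinned to 2000 UMIs, St18 had a UMI in 53.1% of the Ccl24/St18/Slc4a4+ cells (2 shallower cells left out) and 0.0596% of the B cells, against 87.2% and 0.775% unthinned. For Ccl24 the thinned shares were 6.12% and 0%, and for Slc4a4 20.4% and 0.119%. When the cells were chosen by at least 2 UMIs of the other rule genes, so that a gene did not choose its own cells, St18 was found in 36 of 59 cells at 465 CPM (424 to 509), Slc4a4 in 35 of 174 at 104 CPM (92.9 to 117) and Ccl24 in 10 of 182 at 124 CPM (111 to 137). All 3 levels stayed far above those of the B cells.

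**Figure D1:**
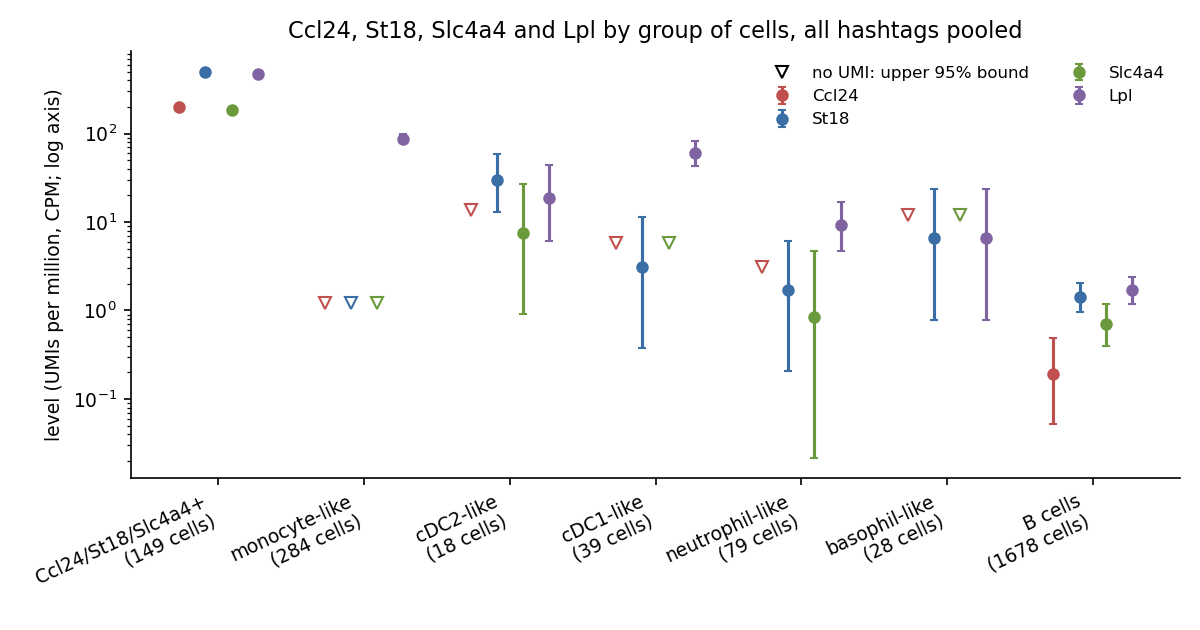
Level of Ccl24, St18, Slc4a4 and Lpl (CPM, log axis) in 7 groups of cells, all hashtags pooled. Points are CPM of the summed cells, bars exact Poisson 95% intervals, and open triangles the upper bound where no UMI was counted. The rule sets the first 3 genes at 0 in monocyte-like cells. Lpl, which the rule did not use, was at 465 CPM in the Ccl24/St18/Slc4a4+ cells and between 1.71 and 87.4 CPM in the other 6 groups.

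In GRCm38 with the GENCODE M21 annotation, Ccl24 (ENSMUSG00000004814) is a protein-coding gene of up to 4 exons on the minus strand of chromosome 5, from 135569937 to 135573049, and Slc4a4 (ENSMUSG00000060961) lies on the plus strand of the same chromosome, from 88886818 to 89239653, with up to 26 exons. St18 (ENSMUSG00000033740) spans 6487231 to 6860940 on the plus strand of chromosome 1 with 13 transcripts, and Lpl (ENSMUSG00000015568) spans 68880491 to 68907448 on the plus strand of chromosome 8. The library reads RNA near its 3′ end, so the transcripts of St18 were not told apart.

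By the rule gene with most UMIs, 114 cells were led by St18, 23 by Slc4a4 and 12 by Ccl24 (3 cells were tied). This split was made after the values had been seen and is descriptive. Summed as a group, the Ccl24-led cells carried macrophage and secreted-product genes at high levels. Lyz2 was at 2263 CPM in them, Spp1 (osteopontin) at 4955 and Lpl at 1223. In the St18-led cells Lyz2 was at 403 CPM and Spp1 at 2458, and in the Slc4a4-led cells at 35.2 and 122. The Slc4a4-led cells nonetheless held Lpl at 781 CPM, above the 301 CPM of the St18-led cells. At least 3 of 12 pan-macrophage genes had a UMI in 11 of the 12 Ccl24-led cells, in 79 of the 114 St18-led cells and in 2 of the 23 Slc4a4-led cells. The Slc4a4-led and St18-led cells were of like depth (median 13065 and 13655.5 UMIs), and the Ccl24-led cells were deeper (median 20461 UMIs). Over all, 92 of 149 cells (61.7%) reached 3 such genes, against 193 of 284 monocyte-like cells (68.0%). Csf1r and Fcgr1, which are in this list, were among the genes that chose the monocyte-like cells.

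Where the cells lay by the other genes was read from clusters of all filtered cells, made without any gene that a gate used. The clusters are given by number and leading genes. Of the 149 cells, 54 lay in cluster 23, 53 in cluster 15, 24 in cluster 18, 14 in cluster 22, 3 in cluster 24 and 1 in cluster 4. In cluster 23, led by Prkg1, Ntng1, Dpysl3, Mecom and Meis1, they were 54 of 109 cells (49.5%, 39.8 to 59.3), and 22 of the 23 Slc4a4-led cells were there. Cluster 15, led by Htr7, Zfp366, Cst3 and Ccl22, also held 74 of the 284 monocyte-like, 32 of the 39 cDC1-like and 14 of the 18 cDC2-like cells (chosen by Xcr1 and Clec9a, or by Cd209a and Clec10a), and 52 of its 53 Ccl24/St18/Slc4a4+ cells were led by St18. Cluster 18, led by Gpnmb, Ccl2, Pid1 and Lyz2, held 114 of the 284 monocyte-like cells, and cluster 22, led by Ngp, Camp, Lcn2 and Elane, 35 of the 79 neutrophil-like cells. The Ccl24-led cells were spread over all 4 of these clusters, with 4 in cluster 23, 1 in cluster 15, 4 in cluster 18 and 3 in cluster 22. Of the 149 cells, those in cluster 23 held 348 of the 520 Ccl24 UMIs but 21 of the 1511 Lyz2 UMIs. Most Ccl24 RNA thus lay in the cluster with little Lyz2, but 203 of the 348 UMIs there came from 1 cell. Without that cell, cluster 23 would no longer hold most of the Ccl24 UMIs. The Lyz2 of the Ccl24-led cells came mainly from those in other clusters. The cells in cluster 22 had a median of 46753.5 UMIs, against 12221 to 13796 in the other 3.

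**Figure D2:**
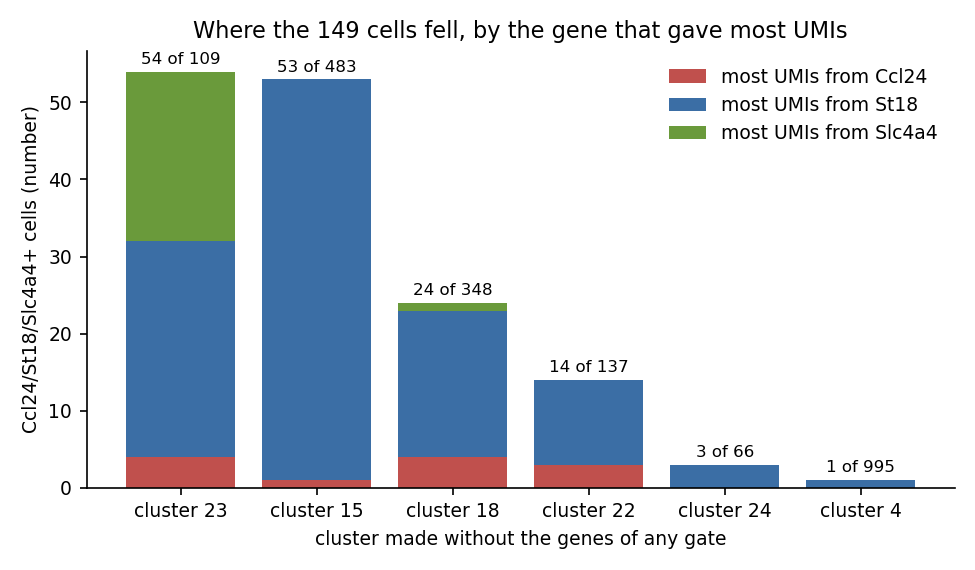
Number of Ccl24/St18/Slc4a4+ cells in each cluster of all filtered cells, coloured by the rule gene with most UMIs in the cell. The label over each bar gives these cells out of all cells of the cluster. Cluster 23 took 54 cells and 22 of the 23 led by Slc4a4, and cluster 15 took 53 cells, 52 of them led by St18.

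Among the 15 nearest neighbours of a Ccl24/St18/Slc4a4+ cell, measured without the gate genes, a mean of 34.0% were of the same kind, while these cells are 0.913% of the filtered cells. The mean was 60.9% for Slc4a4-led cells, 36.7% for Ccl24-led and 28.4% for St18-led cells, and 12 cells, all led by St18, had no such neighbour. Monocyte-like cells had 9.01% of them among their neighbours and 30.2% of their own kind.

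The cells of the 4 clusters differed in what they transcribed. In the 54 cells of cluster 23, most macrophage genes were low: the 12 pan-macrophage genes summed to 398 CPM, Csf1r (the receptor of macrophage growth factor) had 1 UMI, and Fcgr1, an IgG receptor, had none in 823712 UMIs. Spi1, the transcription factor PU.1 of myeloid and B cells, was an exception, with 135 UMIs at 164 CPM, the level of the monocyte-like cells (164 CPM), and Adgre1 had 10 UMIs in 2 cells. Genes of stem and progenitor cells were at 398 CPM as a list (6 genes, chosen after their values had been seen), below the 525 CPM of the 55 other cells of the cluster. They included the transcription factors Meis1 at 202 CPM and Mecom at 77.7. Adamts6, a secreted metalloprotease, had a UMI in all 54 cells, at 2132 CPM, and Lpl was at 528 CPM. The chemokines Ccl3 and Ccl4, made by many activated leukocytes, were at 4733 and 7714 CPM. Trac, the constant chain of the T cell receptor, had 104 UMIs in 35 of the 54 cells, at 126 CPM, against 12.9 CPM in B cells, although Cd3e was at 0 by the rule. The CD3 genes Cd3d and Cd3g of T cells were scarce there, with 5 and 3 UMIs, at 6.07 and 3.64 CPM against 4.22 and 2.23 in B cells. Gzma, a granzyme of NK and T cells, had 32 UMIs in 8 cells, at 38.8 CPM. The 55 other cells of the cluster, which were not filtered for lymphocyte genes, had it at 334 CPM. Whether the 54 cells hold a T cell part was not tested.

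In the 24 cells of cluster 18, by contrast, the pan-macrophage genes summed to 6974 CPM, above the 4331 CPM of the monocyte-like cells. Csf1r was at 77.9 CPM and Fcgr1 at 120, and the lysosomal genes Ctsb and Gpnmb at 1257 and 943 CPM. Spp1 was at 6385 CPM and Lpl at 375.

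The 53 cells of cluster 15 had the highest levels of antigen presentation genes among these 4 clusters. The 10 genes of the MHC class II list summed to 20642 CPM in them, against 8010 CPM in all 149 cells and 9588 in monocyte-like cells, and H2-Aa alone was at 3689 CPM. The 10 dendritic cell genes summed to 725 CPM against 261 in monocyte-like cells, with Zbtb46, a transcription factor of conventional dendritic cells, at 186 CPM and Ccr7, the receptor that leads them to lymph nodes, at 190. The 430 other cells of cluster 15 were nearer, with the MHC class II list at 17562 CPM and the dendritic cell list at 565. Clec9a, a marker of cDC1, had a UMI in 18 of the 53 cells. Lpl was low here, at 50.7 CPM, and Slc4a4 had 1 UMI.

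The 14 cells of cluster 22 carried the granule genes of young granulocytes and monocytes. Mpo (myeloperoxidase) was at 2331 CPM, Elane (neutrophil elastase) at 1824, Prtn3 at 1796 and Ctsg at 1658, and 13 of the 14 cells had a UMI of each. The late granule gene Ltf had 74 UMIs, all in 1 cell. The 4 genes of mature neutrophils and their precursors that were higher in the 149 cells than in monocyte-like cells, Ngp, Camp, Ltf and Lcn2, each had most of their UMIs in 1 cell. Lpl was at 907 CPM and Cd14 at 987 in these cells, and Cd74 at 167.

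**Figure D3:**
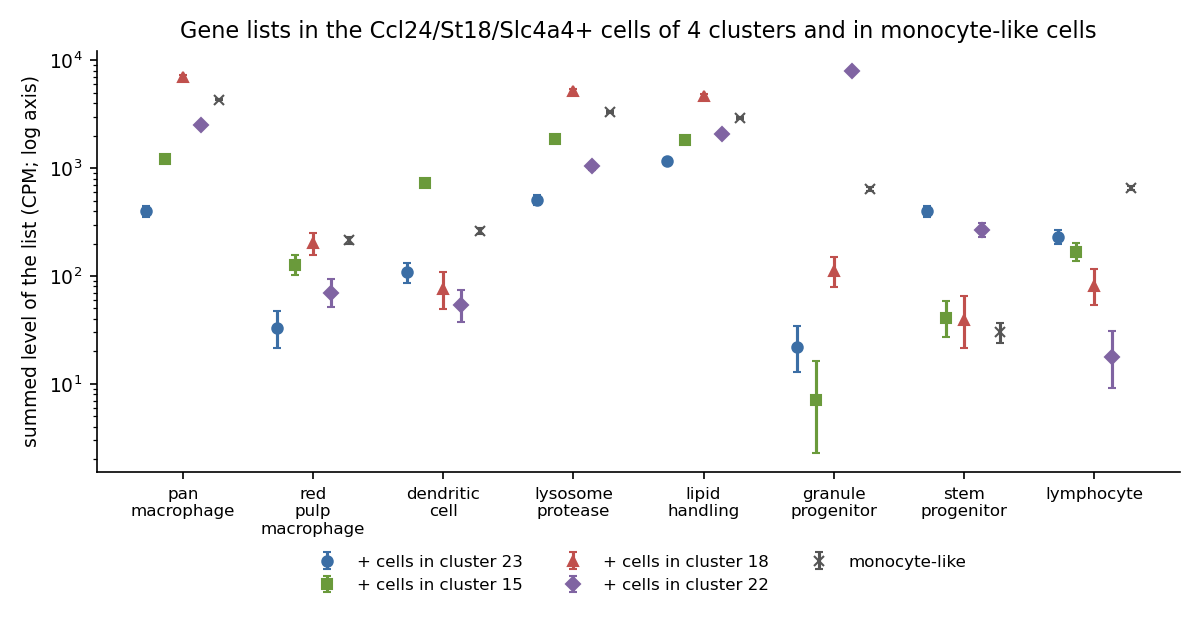
Summed level of 8 gene lists (CPM, log axis) in the Ccl24/St18/Slc4a4+ cells of clusters 23, 15, 18 and 22 and in the monocyte-like cells, with exact Poisson 95% intervals. Pan-macrophage genes ran from 398 CPM in cluster 23 to 6974 in cluster 18, and granule progenitor genes from 7.04 in cluster 15 to 7932 in cluster 22.

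The label of these cells as macrophage-like was held against the genes of each type. Of 16 red pulp macrophage genes, C1qc, Cd5l and Paqr9 had no UMI in the 2629797 UMIs of the 149 cells, which allows each a level of up to 1.14 CPM (3 counts). Cd163, the haemoglobin scavenger receptor, and C1qa had 1 UMI each, Slc40a1 5 in 2 cells and C1qb 6 in 3 cells. Spic had 19 UMIs, 13 of them in 1 cell, at 7.22 CPM (4.35 to 11.3), against 2.93 CPM in monocyte-like cells and 0.332 in B cells. Vcam1 had 28 UMIs in 8 cells, at 10.6 CPM (7.07 to 15.4) against 3.59. The list summed to 89.7 CPM, below the 214 CPM of the monocyte-like cells, and its most abundant gene was Hmox1, the enzyme that breaks down haem, at 21.7 CPM against 114. Of the 57 Hmox1 UMIs, 49 lay in the 24 cells of cluster 18, where Hmox1 was at 136 CPM (101 to 180) and the list at 200 CPM (157 to 252), close to the monocyte-like cells. Vcam1, C1qb and Cd163 had no UMI in these 24 cells, and all 5 UMIs of Slc40a1 were there. At least 3 of the 16 genes were found in 3 of the 149 cells and in 11 of the 284 monocyte-like cells. Of the other genes, Axl was at 17.5 against 18.3 CPM and Mrc1, the mannose receptor, at 17.1 against 32.3. Spic and Vcam1 had under 50 UMIs in both groups together, so no ratio is given for them. Under the alternatives Spic ranged from 2.30 to 17.0 CPM, and the lowest value is below the 2.93 CPM of the monocyte-like cells. Of the 28 Vcam1 UMIs, 21 lay in cluster 22, while C1qc, Cd5l, Cd163 and C1qa had at most 1 UMI.

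Defining genes of the other resident macrophages were missing too. Marco, Siglec1 and Cd209b of the marginal zone list had no UMI, while Cd209a, which also marks cDC2, had 35 UMIs, Timd4 21 and Stab2 4, and the list summed to 22.8 CPM against 36.5 in monocyte-like cells. Of the list for large peritoneal macrophages, Gata6, Alox15 and Cxcl13 had no UMI. Its sum was 74.2 CPM against 138, and its most abundant gene was Fn1 (fibronectin), with 100 UMIs, 95 of them in cluster 18. The next were Selp with 37 UMIs, Tgfb2 with 22 and Icam2 with 15. Of the eosinophil list, 5 of 8 genes were at 0 (Prg2, Epx, Ear1, Ear2 and Ear6), and the list held 24 UMIs. The basophil and mast cell list summed to 423 CPM against 14.7 in monocyte-like cells, and 57 of the 149 cells had a UMI of at least 1 of its 9 genes, but 5 cells of at least 3 genes. Its most abundant gene was Mcpt8, and 3 cells had at least 3 UMIs of Mcpt8 and Prss34. Of the 3 cells in cluster 24, which held 24 of the 28 basophil-like cells, 2 were marked by Scrublet. In the lymphocyte list of 10 genes, with none at 0, the sum was 136 CPM against 661 in monocyte-like cells, and Trac was its most abundant gene, at 47.5 CPM.

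Of 8099 genes with at least 50 UMIs in the Ccl24/St18/Slc4a4+ and monocyte-like cells together, without gate genes, 523 (6.46%) were at least 2-fold higher by CPM in the Ccl24/St18/Slc4a4+ cells and 358 (4.42%) at least 2-fold lower. The median log2 ratio over all genes was 0.07. These shares describe 2 groups of cells of 1 pool, and the lists are read against them. A gene with under 50 UMIs in the group where it was lower was compared only with the help of the other group. Its call is therefore no evidence of a direction. Among the list genes called higher, this holds for Il1a, Il6, Mmp14, Cdk1, Il4, Ngp and Ltf, among others. The monocyte-like cells also held lymphocyte RNA: Gzma was at 393 CPM against 38.8, and the NK receptor gene Klra9 at 46.9 CPM against 2.28. Without the monocyte-like cells that had a UMI of Gzma or Klre1, 587 of 7700 genes were higher and 328 lower.

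Lpl had 1223 UMIs in 59 cells and was 5.32-fold higher (4.66 to 6.10), at 465 CPM (439 to 492) against 87.4 (77.2 to 98.5). It was 419 CPM without its richest cell, and 313 CPM (3.58-fold higher) in the cells outside cluster 22. Lpl was proposed as a marker of these cells with results of these data known, so its level describes them. After thinning, 27.9% of the Ccl24/St18/Slc4a4+ cells, 6.14% of the monocyte-like cells and 0.238% of the B cells had an Lpl UMI.

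Of the pan-macrophage list, 9 of 12 genes were compared, 0 were higher and 4 lower, with a median log2 ratio of -0.94. Lyz2 was at 575 CPM against 1720 (2.99-fold lower, 2.83 to 3.17) and Cd68, a glycoprotein of lysosomes, at 94.7 against 292 (3.09-fold lower). Fcer1g, a signalling chain of Fc receptors, was 2.13-fold lower. Adgre1, the F4/80 antigen of macrophages, was at 19.8 CPM against 14.3, and Itgam, the CD11b chain used in the sort, at 36.9 against 70.7 CPM. Csf1r and Fcgr1 were left out as gate genes. As given above, the list lay below the monocyte-like cells in clusters 23, 15 and 22, and above them in cluster 18. The 324 other cells of cluster 18 held it at 5975 CPM.

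Of 16 genes of the lipid list compared, Lpl alone was called higher and 8 were lower: Fabp4 (a fatty acid carrier, 14.7-fold, 1.90 against 28.0 CPM), Apoc2 (the cofactor of Lpl, 1.14 against 17.6 CPM), Apoe, Cd36, Plin2, Lrp1, Nceh1 and Pparg, with a median log2 ratio of -1.01. Among 9 bicarbonate and proton genes compared, Car2, a carbonic anhydrase, was higher, 4.07-fold (3.26 to 5.10) at 139 against 34.2 CPM. Car2 lay mainly with the Slc4a4-rich cells, with 250 of its 366 UMIs in cluster 23.

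Of 14 lysosome and protease genes compared, Mmp14, a membrane metalloprotease, was higher (2.26-fold) and 9 lower, with a median log2 ratio of -1.10. They included the cathepsins Ctsb (351 against 822 CPM), Ctsd and Ctss, and Gpnmb (3.85-fold lower). The iron list had 1 of 11 genes higher, Ncoa4, the receptor that delivers ferritin to lysosomes (54.8 against 26.4 CPM), and 4 lower: Hmox1 (5.26-fold), Slc11a1, Blvrb and Fth1, the ferritin heavy chain, at 2891 against 7429 CPM. Of 8 complement and uptake genes compared, the receptors C3ar1 and Msr1 were lower and 0 higher. The lower sums did not hold in the 24 cells of cluster 18. There the lysosome list was at 5206 CPM against 3312 in monocyte-like cells, the iron list at 15670 against 11943 and the lipid list at 4647 against 2930. Ctsb and Gpnmb, at the levels given above, and Fth1, at 9449 CPM, were likewise above the monocyte-like cells in this cluster. The 324 other cells of cluster 18 also lay above the monocyte-like cells as a whole, with the lysosome list at 4393 CPM, the iron list at 14150 and the lipid list at 4082, so these levels were shared by the cluster.

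**Figure D4:**
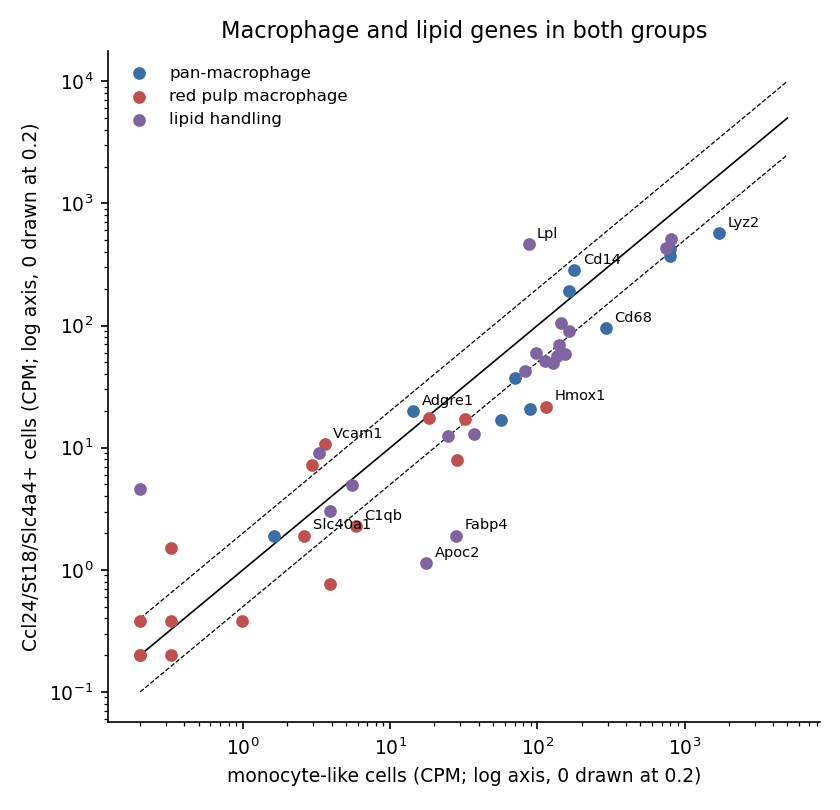
Level of pan-macrophage, red pulp macrophage and lipid genes (CPM, log axes, 0 drawn at 0.2) in monocyte-like cells on the x axis and in Ccl24/St18/Slc4a4+ cells on the y axis. The full line marks equal levels and the dashed lines 2-fold. Lpl, at 465 against 87.4 CPM, lies far above the upper line, while Lyz2, Cd68, Hmox1 and Fabp4 lie below the lower one.

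In the eotaxin and type 2 list of 11 genes, 5 were compared, Il4 was higher and the receptor chain Il13ra1 lower (43.3 against 131 CPM). The 85 Il4 UMIs came from 3 cells, 68 from 1. The eotaxin Ccl11 had no UMI, and Ccr3, the receptor of Ccl24, had 2. Of 9 genes of alternative activation compared, Cish, a feedback inhibitor of cytokine signals, was higher (110 against 52.8 CPM) and Chil3 lower (51.7 against 117), and Retnla had no UMI.

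Chemokine RNA was abundant. Ccl4 was at 5257 CPM, close to the 5078 of the monocyte-like cells. Of 12 chemokines compared, 3 were higher: Cxcl10 and Cxcl9, which draw T cells through Cxcr3, at 2710 against 867 (3.13-fold, 2.99 to 3.27) and 2288 against 1003 CPM (2.28-fold), and Ccl3 at 2947 against 1465 (2.01-fold). The neutrophil attractant Cxcl2 was 5.19-fold lower, and the monocyte attractants Ccl2 and Ccl7 and the chemokine Ccl6 were lower too. The higher chemokines came from different cells: Ccl3 was at 4733 CPM in cluster 23 and between 635 and 1827 in the other 3, Cxcl9 was highest in cluster 15 (3651 CPM) and cluster 22 (3362 CPM), and Cxcl10 was highest in cluster 22 (6417 CPM). In the cells outside cluster 22, Cxcl10 was 1.66-fold and Cxcl9 1.91-fold higher, below the 2-fold call, and Ccl3 2.32-fold.

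Of 13 cytokine and growth factor genes compared, Il1a (5.86-fold, 72.6 against 12.4 CPM), Csf1, the growth factor of macrophages (4.45-fold, 171 against 38.5 CPM), and Il6 were higher, and Il1rn, the antagonist of the IL-1 receptor, and Hbegf were lower. Cluster 22 held 254 of the 450 Csf1 UMIs, and outside it Csf1 was at 100 CPM, 2.60-fold higher. Il6 came to 94 of 143 UMIs from 1 cell. Spp1, the most abundant gene of the list, was at 2470 against 2074 CPM, but with hashtag 12 at 319 against 2396. The 14 cells of cluster 22 held 3684 of its 6495 UMIs, and the cells of clusters 23 and 15 held 356 and 68. Under the alternatives Spp1 ranged from 1579 to 2732 CPM, so its direction against the 2074 CPM was not stable. Il10 was at 10.3 CPM (27 UMIs in 19 cells) against 12.7 in monocyte-like cells.

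Of 15 transcription factors compared, Mitf, a regulator of lysosome and pigment genes, was higher (2.47-fold, 168 against 67.8 CPM), with 249 of its 441 UMIs in cluster 22 and a ratio of 1.45 in the cells outside it, and Maf, Pparg and Id3 were among the lower ones. Of 14 immediate early genes, which the stimulation acts on, Egr3 was higher and Fos and Dusp1 lower, with a median log2 ratio of -0.20. The MHC class II list had 0 of 10 genes higher and 1 lower, H2-DMb1, with a median log2 ratio of -0.31, which turned to 0.35 against monocyte-like cells without Flt3 or Zbtb46. Among 6 proliferation genes, Mki67, Top2a, Birc5 and Cdk1 were higher, between 2.13-fold and 2.41-fold, with a median log2 ratio of 1.12, which turned to -0.43 when each cell was thinned to 2000 UMIs. Outside cluster 22 only Mki67 of these 4 stayed above 2-fold (2.13-fold).

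Of the lists for other cell types, the monocyte list had 0 of 10 genes higher and 2 lower, Vcan (24.3 against 60.3 CPM) and Chil3. The dendritic cell list had 0 of 6 compared genes higher or lower over the 149 cells together, and summed to 254 CPM against 261. All 5 compared genes of the basophil and mast cell list were higher, Mcpt8, Prss34, Cpa3, Gata2 and Kit, with a median log2 ratio of 5.76. They reached 50 UMIs only through the Ccl24/St18/Slc4a4+ cells, so this count is no evidence of a direction. The monocyte-like cells had 0 UMIs of Mcpt8, Prss34, Cpa3 and Gata2, and 43 of Kit. All 5 granule progenitor genes were higher, between 2.72-fold for Elane and 5.13-fold for Ms4a3, and so were all 6 stem and progenitor genes, among them Cd34 (20.5 against 2.93 CPM) and Kit, the receptor of stem cell factor (38.0 against 14.0 CPM). Both of these lists were chosen after the values had been seen, so their counts are not evidence of a direction. The stem and progenitor genes also reached 50 UMIs only through the Ccl24/St18/Slc4a4+ cells, since each had fewer in the monocyte-like cells. With hashtag 11 Elane and Mpo, the granule genes read by hashtag, went the other way. Elane was at 254 against 479 CPM, with 135 of its 136 UMIs in 1 cell, and Mpo at 265 against 312. Outside cluster 22 all 5 granule progenitor genes were below the monocyte-like cells, with Mpo at 2.55 CPM. Cd34, Gata2 and Muc13 had 22, 21 and 25 UMIs left outside that cluster, too few for a ratio, and so lost their calls. Of the Fc receptor list Fcgr3 and Fcer1g were lower among 3 compared, of the heat shock list Hspa1a among 5, and of 8 neutrophil genes the 4 named above were higher and S100a8, S100a9, Csf3r and Retnlg lower. No gene of the eosinophil list or of the red cell and platelet list reached 50 UMIs.

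The 15 genes with the highest ratios, outside the gate genes, came from small sets of cells. In the first set were basophil and mast cell genes. Mcpt8, a basophil protease, had 416 UMIs in 6 cells, 302 of them in 1, and was at least 162-fold higher, since the monocyte-like cells had none. All 384 UMIs of Prss34, another basophil protease, came from 1 cell. Cpa3, a mast cell carboxypeptidase, had 139 UMIs in 5 cells. Car8 had 132 UMIs in 5 cells, 81 of them in 1, and Cyp11a1, a steroid synthesis enzyme, 56 in 7 cells. Il4 is given above. These genes thus described a few cells.

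The second set lay mostly in cluster 23, with the exception of Mylk. Dpysl3, a cytoskeletal protein of growing neurons, had 240 UMIs in 22 cells, 235 of them in the cluster, against 3 UMIs in monocyte-like cells (ratio 93.3, 31.5 to 456). Mecom had all 64 of its UMIs there, in 21 cells, and Nts, the gene of neurotensin, all 103 of its UMIs, in 5 cells. Jam2, a junction protein, and 2610307P16Rik were spread more widely, with 113 UMIs in 29 cells and 79 in 26. Map2 had 57 UMIs in 13 cells and Adamts9 110 in 7. Mylk had 58 UMIs in 4 cells, 36 of them in cluster 15 and 21 in cluster 23.

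The 10 genes with the lowest ratios included, beside Klra9, Fabp4 and Apoc2, the neutrophil gene Retnlg (3 UMIs against 109), Thbs1 (thrombospondin, 2.28 against 41.1 CPM), Itga2, an integrin chain found on NK cells (5.70 against 71.7 CPM), the heat shock gene Hspa1a (1.14 against 16.6 CPM), and Gm15247, Gm19585 and G530011O06Rik. The 10 most abundant genes outside mitochondrial and ribosomal protein genes were Malat1, Tmsb4x, Tpt1, Ccl4, Fau, Actb, Eef1a1, Lgals3, Gm42418 and Cd74. Of these Lgals3, the gene of galectin-3, was at 3322 CPM against 6014 in monocyte-like cells, and all 10 differed by less than 2-fold.

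The values near the threshold of 3 UMIs were read in genes that the rule did not use. The 43 cells with 2 UMIs of the rule genes, just outside, held Lpl at 115 CPM, and the 21 cells with 3 UMIs, just inside, at 330. In the 70 cells with 4 to 9 UMIs Lpl was at 329 CPM, and in the 58 cells with 10 or more at 632. Spp1 was at 260, 2117, 2399 and 2636 CPM in the same order. Lyz2 did not follow, at 341, 522, 920 and 265 CPM. The share of cells in cluster 23 was 18.6% and 14.3% on either side of the threshold, 21.4% with 4 to 9 UMIs and 62.1% with 10 or more. The cells richest in the rule genes were thus mostly those of cluster 23, and held less Lyz2 than the cells with 4 to 9 UMIs.

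A single hashtag was called in 119 of the 149 cells, several in 29 (19.5%, against 27.1% of the monocyte-like cells) and none in 1. Hashtag 9 marked 45 cells, hashtag 10 20, hashtag 11 37 and hashtag 12 17, beside 53, 39, 72 and 39 monocyte-like cells. Cells of clusters 23, 15, 18 and 22 were found with every hashtag. The hashtags are samples that the labels put in no condition, so each is given by its value. Of the 3 rule genes, Ccl24 differed most: it was at 168 CPM with hashtag 9 (4 cells), 507 with hashtag 10 (5 cells), 89.7 with hashtag 11 (2 cells) and 7.01 with hashtag 12 (2 cells, 1 UMI each). In hashtags 9, 10 and 11 the richest cell held 95 of 137, 203 of 225 and 46 of 48 of the UMIs, so these levels rest mostly on single cells. Mcpt8 differed more widely still, at 132, 6.77, 0 and 1066 CPM with hashtags 9, 10, 11 and 12, with 302 of the 304 UMIs of hashtag 12 in 1 cell.

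St18 was at 514, 226, 716 and 505 CPM with hashtags 9, 10, 11 and 12, and was found in 39 of 45, 16 of 20, 33 of 37 and 16 of 17 cells. It was lowest with hashtag 10, where 4 of the 20 cells were led by Ccl24, and since St18 chose the cells these values are a description. Slc4a4 was at 190, 160, 288 and 263 CPM in the same order. Lpl was at 445, 582, 383 and 410 CPM, against 139, 7.33, 52.6 and 137 CPM in the monocyte-like cells of the same hashtags, and lay above them within each hashtag. So did Cxcl9, Cxcl10, Csf1, Mitf and Adamts6, while Lyz2, Cd68, Gpnmb, Hmox1 and Fth1 lay below them within each hashtag. Cd74 and Zbtb46 lay above them with hashtag 11 and below them with the other 3. The Cxcl10 levels of hashtags 11 and 12 rested mostly on the richest cell of each, which held 707 of 933 and 528 of 661 of the UMIs. With hashtag 12 the richest cell for Cxcl9 held 386 of its 682 UMIs. Without its richest cell, Cxcl10 with hashtag 12 would lie below the 1812 CPM of the monocyte-like cells of that hashtag. With hashtag 11 it would stay above their 364 CPM. Whether Cxcl9 with hashtag 12 would lie above the monocyte-like cells without its richest cell was not tested. Over all Ccl24/St18/Slc4a4+ cells, whichever hashtag was called in them, the median was 10 UMIs of hashtag 11 and 102 of hashtag 9. How strongly hashtag 11 stained its own 37 cells was not tested. A rule that asked for a share of at least 60% of the hashtag UMIs gave hashtag 11 only 7 cells.

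**Figure D5:**
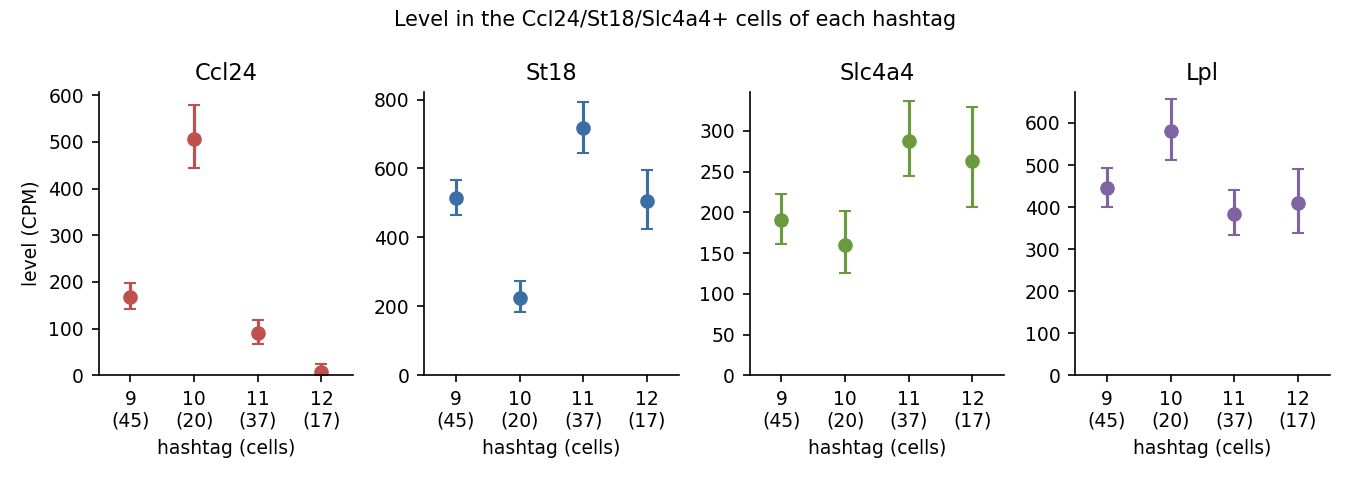
Level of Ccl24, St18, Slc4a4 and Lpl (CPM, linear axes from 0) in the Ccl24/St18/Slc4a4+ cells of each hashtag, with the number of cells under the hashtag and exact Poisson 95% intervals, which cover counting error only. Ccl24 ran from 7.01 to 507 CPM, and Lpl from 383 to 582.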

How the data were processed

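Single-cell libraries of 1 pool were made with the 10x Chromium 3′ v3.1 chemistry. The authors deposited raw UMI counts per gene and hashtag from Cell Ranger (7.2.0 in the methods and labels, 7.0.0 in the matrix header, reference GRCm38). The members, markers, lists and tests were chosen with earlier results of these data known. The lists of granule and stem progenitor genes and 4 further genes (Il10, Hdc, Il27, Adamts6) were added after the values had been seen.

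Of the deposited counts, barcodes under 200 genes or over 10% mitochondrial UMIs were dropped (504 barcodes, and 0 exceeded 60% ribosomal UMIs). Scrublet, run through scanpy 1.11.5 at an expected rate of 0.1, marked doublets, which stayed in. Clusters used 2000 variable genes without gate genes, 30 principal components, 15 neighbours and Leiden (leidenalg 0.10.2, resolution 2). Hashtags were called with HTODemux (Seurat 5.3.0, R 4.3.3, quantile 0.85) over the myeloid gates and members. Statistics used Python 3.11.15, NumPy 2.4.6, SciPy 1.17.1 and scikit-learn 1.9.0, and figures matplotlib 3.10.9.

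CPM is a gene's summed UMIs divided by all gene UMIs of that group, times 1000000. A gene counted as higher or lower with a CPM ratio of at least 2 or at most 0.5 and at least 50 UMIs in both groups together, and a group at 0 was set to 3 UMIs. Named genes were the rule genes and Lpl, the list genes, the 15 highest and 10 lowest ratios and the 10 most abundant genes. Neutrophil-like cells needed at least 20 UMIs of S100a8 and S100a9 and 1 of Csf3r. The ratio was tested on simulated data of these 2 groups, where 200 of 200 genes changed 4-fold were recovered and 15 of 7886 others called. PCR duplicates are removed by the UMIs. The therapies were not compared, and the raw reads were not used here. Results for 2 of the named genes are not reported here.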

Additional observations from a re-analysis of the deposited data

How the results depend on the processing

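Ccl24/St18/Slc4a4+ and monocyte-like cells of the same hashtag were set side by side as pairs but not tested, since the labels give the hashtags no condition and 4 pairs allow no two-sided exact p below 0.125. The number of Ccl24/St18/Slc4a4+ cells lay between 109 and 222 under the alternatives, and the share of neighbours of the same kind between 31.8% and 37.4%. The count of genes at least 2-fold higher and lower, 523 and 358 (59.4% of the calls higher), was 959 and 219 with the 18 cDC2-like cells as reference (81.4% higher), 110 and 165 with each cell thinned to 2000 UMIs, where 3147 genes were compared (40.0% higher), 1906 and 1024 with at least 1 UMI, and 118 and 73 at 4-fold. With at least 20 UMIs, 1013 genes were higher and 530 lower. Chosen after seeing the data, leaving out members with basophil genes gave 492 and 340, and leaving out monocyte-like cells with Gzma or Klre1 gave 587 and 328, and leaving out the members in cluster 22 gave 363 and 315. Median log2 ratios of several lists changed sign, and the cause was not tested. Against cDC2-like cells they were 0.16 for the lipid, 0.53 for the Fc receptor, 0.19 for the pan-macrophage, 1.14 for the monocyte and 0.69 for the eotaxin list. Against monocyte-like cells without Flt3 or Zbtb46 they were 0.35 for the MHC class II, -0.34 for the cytokine and -0.21 for the neutrophil list. After thinning they were -0.43 for the proliferation, 0.14 for the MHC class II, 0.12 for the chemokine, -0.60 for the cytokine and -3.14 for the neutrophil list. As means over cells they were 0.03 for the marginal zone, 0.09 for the MHC class II, -0.13 for the cytokine and -0.83 for the neutrophil list. With 1 called hashtag the eotaxin (0.01), immediate early (0.09) and cytokine (-0.03) lists turned, and without Gzma or Klre1 in the reference the bicarbonate (0.04), immediate early (0.04) and neutrophil (-0.04) lists. Without cells marked by Scrublet the neutrophil list went from 0.19 to -2.76. Without the members in cluster 22 the granule progenitor list turned to -3.41, and the neutrophil (-4.09), cytokine (-0.28), MHC class II (0.02) and eotaxin (0.04) lists turned as well. The dendritic cell list, at 0.00, ran from -0.69 to 0.38. The red pulp, lysosome, iron and complement lists stayed below 0 under every alternative run, and the stem progenitor and the basophil and mast cell lists above 0. In the main comparison the compared genes of the stem progenitor and the basophil and mast cell lists reached 50 UMIs only through the Ccl24/St18/Slc4a4+ cells. Their sign is therefore no evidence of a direction. Of 279 levels of single genes recomputed, 153 moved by less than their counting interval and 126 by more. Ccl24 ranged from 122 to 252 CPM, Mcpt8 from 1.97 to 204, Elane from 167 to 550, Lpl from 354 to 529 (313 outside cluster 22) and St18 from 435 to 692. The alternatives without 1 hashtag each are among these. Depth limits the lists: 12 of 16 red pulp macrophage genes had under 50 UMIs in both groups together and got no ratio.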

Other observations

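Among the genes chosen after their values had been seen, Hdc, the enzyme that makes histamine, had 294 UMIs in 28 Ccl24/St18/Slc4a4+ cells, at 112 against 14.0 CPM in monocyte-like cells, with 131 of them in the 3 cells of cluster 24, 2 of which were marked by Scrublet, and 129 in the 14 cells of cluster 22. Il27 had 171 UMIs in 23 cells, at 65.0 against 15.3 CPM, with 71 UMIs in cluster 15 and 71 in cluster 22. Adamts6, at 2132 CPM in the 54 Ccl24/St18/Slc4a4+ cells of cluster 23, was at 956 CPM in the 55 other cells of that cluster, 90.9% of which had a UMI.

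In the other cells of cluster 23, St18 was at 176 CPM and Slc4a4 at 144 CPM, above the 1.42 and 0.711 CPM of the B cells. Of these 55 cells, 18 (32.7%) were marked by Scrublet, against 3 of the 54 Ccl24/St18/Slc4a4+ cells (5.56%). Vcam1, a gene of the red pulp list, was at 263 CPM in the other 123 cells of cluster 22, with a UMI in 56.9% of them, and at 31.2 CPM in the 14 Ccl24/St18/Slc4a4+ cells there.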
